A study of Homo sapiens with 15 samples.

Results

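The miR-183, miR-96, miR-182 cluster is a group of 3 miRNA hairpins that lie together on the long arm of human chromosome 7. Its members were taken by name, as every entry of the deposited counts that begins with hsa-miR-183-, hsa-miR-96- or hsa-miR-182-. There were 6 such entries among 2424 listed in all. The knockdown counts hold all 6, and the counts from RNA immunoprecipitation (RIP-seq) hold 4 of them, miR-183-5p, miR-183-3p, miR-96-5p and miR-182-5p. The passenger strands miR-182-3p and miR-96-3p have no RIP-seq row and were not analysed there.

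The cells were 3 Flp-In 293 T-Rex clones, named FTO1C1, FTO2D4 and FTO3C3, which derive from HEK293, a line of human embryonic kidney origin. For the knockdown the study describes them as uninduced. Each clone gave 1 library per condition, so that n is 3 throughout. The p-values and standard errors of edgeR rest largely on an estimate of variability shared across miRNAs, and almost wholly so for IgG against input. They therefore need not reflect how far a single miRNA spread between the clones. Of the 5 conditions, 2 came from transfected cells, harvested 48 h after 10 nM of scrambled siRNA or of siRNA against FTO, an RNA demethylase that removes the methyl group of N6-methyladenosine (m6A). The other 3 conditions are labelled without an siRNA. They are the small RNA before precipitation (input), the RNA bound by an anti-m6A antibody (m6A samples) and the RNA bound by a control IgG (IgG samples). The knockdown itself, an mRNA measurement, was not analysed here.

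The cluster is known as a single polycistronic transcript that is strongly expressed in sensory cells such as inner ear hair cells and photoreceptors, and it is often raised in epithelial tumours. Each hairpin is cut into a guide strand, here the 5p arm, which is loaded into the silencing complex, and a passenger strand, here the 3p arm, which is mostly degraded. A guide recognises its target mRNAs chiefly through its seed, bases 2 to 8. miR-96 is known for its role in hearing, and miR-182, miR-96 and miR-183 are known to act on the mRNA of the transcription factor FOXO1.

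The mature sequences, from RefSeq on GRCh38.p14, are shown because the members differ in seed and in the bases around adenosines, while their levels are compared throughout. Sequences are written 5′ to 3′ with the seed in capitals.
hsa-miR-183-5p: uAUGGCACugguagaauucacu
hsa-miR-96-5p: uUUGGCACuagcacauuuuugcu
hsa-miR-182-5p: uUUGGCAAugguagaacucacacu
hsa-miR-183-3p: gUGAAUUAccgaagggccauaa
hsa-miR-182-3p: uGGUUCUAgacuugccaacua
hsa-miR-96-3p: aAUCAUGUgcagugccaauaug

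The seeds of the guides are near copies of each other. Counted from the 5′ end, the seed of miR-96-5p differs from that of miR-183-5p by A2U, the seed of miR-182-5p differs from that of miR-96-5p by C8A, and miR-182-5p differs from miR-183-5p by both A2U and C8A. Outside the seed, miR-183-5p and miR-182-5p share the run UGGUAGAA, and they are identical at 18 of the 22 positions compared, against 13 of 22 for miR-183-5p and miR-96-5p. Among the 2127 listed miRNAs that matched a RefSeq sequence, the only other one with the seed of a member is miR-1271-5p, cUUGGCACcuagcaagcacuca, which has that of miR-96-5p. By the authors' criteria a read had to match a miRNA over at least 17 bases in exact runs of at least 7. No full-length member sequence covered more than 10 such bases of another of the listed miRNAs with a RefSeq sequence, and miR-183-5p and miR-182-5p covered 8 of each other, so an exact full-length read of one member did not qualify for another.

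In these sequences the core of the m6A consensus, AAC or GAC, occurs in miR-182-5p and miR-182-3p and in none of the other 4 members. The same core is present in 37.4% of the 2127 listed miRNAs that matched a RefSeq sequence. The longer form, with A or G before the core and A, C or U after it, was found in miR-182-5p at bases 14 to 18 as GAACU and in miR-182-3p at bases 8 to 12 as AGACU, against 21.6% of all matched miRNAs. A second motif that the study examined, A, then A, G or U, then A or G, then A, was found as AGAA at bases 13 to 16 of both miR-183-5p and miR-182-5p and as AUAA at bases 19 to 22 of miR-183-3p, against 31.8% of all. In miR-182-5p this run overlaps the longer form of the core. miR-96-5p held neither motif and had 4 adenosines, where miR-183-5p had 6, miR-182-5p had 7 and the median of all matched miRNAs was 5. These matches describe the letters only.

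The 3 hairpins lie on the minus strand of chromosome 7 in GRCh38.p14, MIR183 at chr7:129774905-129775014, MIR96 at chr7:129774692-129774769 and MIR182 at chr7:129770383-129770492. MIR183 and MIR96 are 135 bases apart and MIR182 follows after 4199 bases, within a span of 4632 bases. No other gene of the RefSeq table overlaps this span, and the nearest protein-coding genes are NRF1 at 13.3 kb and UBE2H at 55.7 kb. These positions were looked up by name, since reads were matched to mature sequences only.

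The libraries held between 186446 (IgG, FTO3C3) and 4973238 (m6A, FTO3C3) reads on miRNAs. Levels are given as reads per 1000000 miRNA reads (RPM) of the same library. In the RIP-seq libraries these totals lean on a single entry, miR-6080, which was the most abundant one in all of them but the input of FTO3C3 and took between 58.0% and 71.6% of the IgG reads. No molecular identifiers are described, so PCR copies may count as separate reads and low counts may be less certain than counting error alone would give. In bulk RNA, fewer expressing cells and less miRNA per cell cannot be told apart. HEK293 has no miRNA list of its own here. Among the lists of other cell types, the liver miRNA miR-122-5p was between 5.22 and 7.03 RPM in the transfected cells, and the summed blood list (4 listed) was between 64.6 and 109 RPM in the transfected cells, 435 and 865 in the input, 801 and 1947 in the m6A samples and 67.4 and 85.8 in the IgG samples, led outside the IgG samples by miR-223-3p. The summed neuron and retina list (5 listed) was between 667 and 952 RPM with scrambled and between 518 and 657 RPM with FTO siRNA, most of it miR-9-5p (means of 722.2 and 491 RPM), while the median log2 fold change of the list was 0.46 against 0.29 for all miRNAs and none of its 5 members was called by edgeR (4 at an unadjusted p under 0.05). Of these 5, miR-124-3p, miR-211-5p and miR-184 had higher values in 3 of 3 clones and miR-9-5p and miR-204-5p lower ones. In the RIP-seq libraries the neuron and retina sum was between 281 and 695 RPM in the input, led by miR-9-5p. It was between 300 and 524 RPM in the m6A samples and 208 and 860.5 RPM in the IgG samples, led in both by miR-184. The summed epithelial list (6 listed) was between 460 and 650 RPM with scrambled and between 664 and 757 RPM with FTO siRNA. Its median log2 fold change was 0.39 against 0.29 for all miRNAs, and edgeR called none of the 5 tested. In the RIP-seq libraries (5 listed) the sum was between 356 and 453 RPM in the input, 952 and 1562 in the m6A samples and 864 and 1289 in the IgG samples. It was led in all 3 by miR-205-5p (means of 291.6, 623.6 and 843.9 RPM), and its members did not move alike. Against the input, edgeR called 4 of 5 higher and 1 lower in the m6A samples (66.8% and 10.5% of all tested miRNAs). In the IgG samples it called 2 higher and 2 lower (36.8% and 21.8% of all). The part of these lists in the results below was not tested.

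In HEK293 cells treated with scrambled siRNA the cluster was abundant but very uneven. The 4 members listed in both experiments took 4.36%, 3.86% and 4.10% of all miRNA reads in FTO1C1, FTO2D4 and FTO3C3. miR-182-5p, the guide of the last hairpin of the cluster, had 35171, 30197 and 33292 RPM and was the fifth most abundant of 2418 miRNAs by its mean of 32886 ± 2512 RPM (SD, n = 3 cell lines). miR-183-5p had 8142, 8089 and 7413 RPM, a mean of 7881 ± 406 that placed it at rank 19. miR-96-5p, the guide with the known role in hearing, had 271.0, 306.8 and 231.0 RPM, a mean of 269.6 ± 37.9 at rank 195. The 3 ranges did not overlap, and the order of the guides was the same in each clone with scrambled siRNA. In the input of FTO1C1, however, miR-183-5p was above miR-182-5p (4215 and 3312 RPM).

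The passenger strands were rare. miR-183-3p had 80, 49 and 30 reads with scrambled siRNA, or 19.0 ± 3.55 RPM. miR-182-3p had 27, 22 and 14 reads, or 7.79 ± 1.00 RPM, and miR-96-3p had 11, 12 and 5 reads, or 3.47 ± 1.24 RPM. The guide miR-183-5p outnumbered its own passenger strand 370, 407 and 492 times in the 3 clones.

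**Figure D1:**
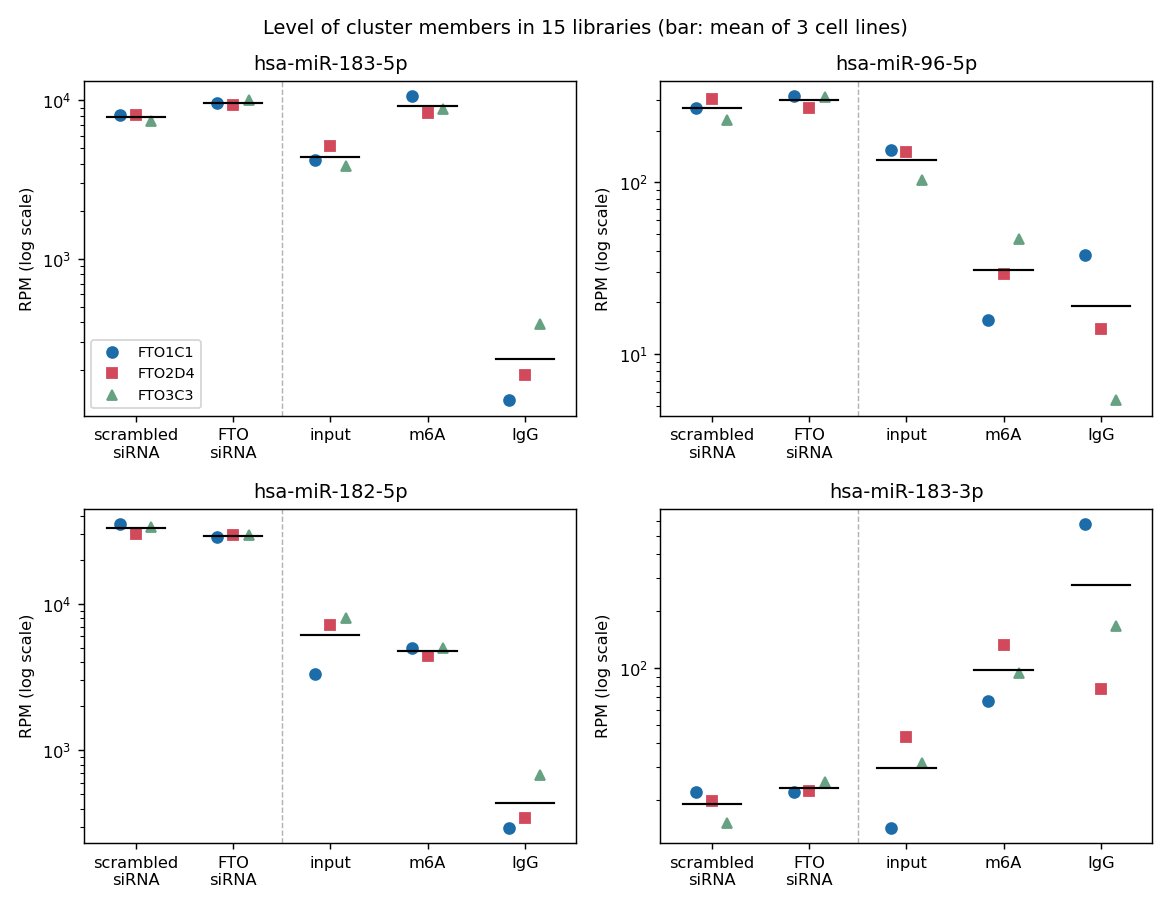
RPM of the 4 members listed in both experiments (y axis, log scale, separate range per panel) in each of the 15 libraries, by condition (x axis), with a symbol per cell line and a bar at the mean of 3. The dashed line separates the knockdown from the RIP-seq libraries. On the RPM scale, miR-183-5p and miR-182-5p have their lowest values in the IgG samples, miR-96-5p is low in the m6A and IgG samples, and miR-183-3p is highest in the IgG sample of FTO1C1.

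The knockdown of FTO was used to ask whether the amount of a miRNA in the cell depends on the demethylase. None of the 6 members passed the test. Over all 2374 miRNAs tested, the quasi-likelihood test of edgeR, blocked by clone and with Benjamini-Hochberg adjustment, called 5.48%, of which 4.97% higher and 0.505% lower. miR-182-3p and miR-183-5p, 2 of the 6, had an unadjusted p under 0.05 by edgeR, as did 621 of all 2374 miRNAs, and DESeq2 called none of the 3 members to which it gave an adjusted p. Without FTO1C1 edgeR called 0 of all miRNAs (327 at an unadjusted p under 0.05). The log2 fold changes of the members ran from -0.16 to 0.58, and the lowest adjusted p by edgeR was 0.176. The median log2 fold change over all tested miRNAs was itself 0.29 on the scale of total reads, and TMM factors moved it to about 0 (-0.000348), so that members are best read against that median.

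miR-183-5p had 9691, 9330 and 10001 RPM after knockdown, a mean of 9674 ± 336 against 7881 ± 406 with scrambled siRNA. It was above the scrambled samples in every clone and the groups did not overlap, as was the case for 28.6% of all tested miRNAs, 26.7% upward. Its log2 fold change was 0.30 (SE 0.13, edgeR adjusted p 0.176), at the median miRNA, and 50.7% of all tested miRNAs had a lower value.

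miR-182-5p had lower values after knockdown. It had 28806, 29561 and 29584 RPM after knockdown, a mean of 29317 ± 443 against 32886 ± 2512, and was lower in 3 of 3 clones, by little in FTO2D4 (ratio 0.979) and by more in FTO1C1 (ratio 0.819). The groups did not overlap, which held downward for 1.94% of all tested miRNAs. The log2 fold change of -0.16 (SE 0.12, edgeR adjusted p 0.414) differed from the median miRNA by -0.45, and 10.2% of all tested miRNAs were lower. With TMM factors the log2 fold change of miR-182-5p was -0.45 (adjusted p = 0.182 by edgeR).

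miR-96-5p had 316.7, 269.4 and 313.1 RPM after knockdown and overlapped with the scrambled samples. It was higher in 2 of 3 clones and lower in FTO2D4, with a log2 fold change of 0.16 (SE 0.17, edgeR adjusted p 0.569) that turned to -0.13 with TMM factors. Of the passenger strands, miR-183-3p had 77, 77 and 97 reads and a log2 fold change of 0.28 (SE 0.21, edgeR adjusted p 0.421), which was -0.023 with TMM factors. miR-182-3p had 38, 37 and 53 reads, 11.8 ± 1.66 RPM, and a log2 fold change of 0.58 (SE 0.25, edgeR adjusted p 0.180). miR-96-3p had 19, 15 and 19 reads and a log2 fold change of 0.51 (SE 0.36, edgeR adjusted p 0.387). Under the fold rules of the study, which ask for at least 15 RPM in all 3 libraries and a mean ratio over 2 or under 0.5, no member was increased or decreased. The mean ratios of miR-182-3p and miR-96-3p were 1.54 and 1.55, over the lower threshold of 1.5, but both were under 15 RPM.

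The ratio of miR-182-5p to miR-183-5p does not depend on the library total. There were 4.32, 3.73 and 4.49 reads of miR-182-5p per read of miR-183-5p with scrambled siRNA and 2.97, 3.17 and 2.96 after FTO knockdown. The ratio was lower in every clone after knockdown and the groups did not overlap, with a mean log2 difference of -0.46 ± 0.20 (SD, n = 3 cell lines, two-sided exact permutation test by sign flips, p = 0.25, the smallest that 3 pairs allow). Such a shift was common. Among all pairs of the 1017 miRNAs with at least 15 RPM in all 6 libraries, the ratios of 25.7% did not overlap between the groups, and the median absolute log2 change was 0.36. The ratio of miR-96-5p to miR-183-5p stayed between 0.0312 and 0.0379 with scrambled siRNA and between 0.0289 and 0.0327 after knockdown, and these ranges overlapped. The guide to passenger ratio of miR-183 was 438, 420 and 400 after knockdown, inside the range of the scrambled samples.

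Precipitation with the anti-m6A antibody was compared with the IgG control to ask which miRNAs the antibody binds. The guides miR-183-5p and miR-182-5p were far higher in the m6A than in the IgG samples, whereas miR-96-5p and miR-183-3p did not pass the test. Both guides were far lower in the IgG samples than in the input (log2 fold changes -4.39 and -3.81). For m6A against input their log2 fold changes were 1.08 and -0.27, or -0.47 and -1.82 with TMM factors. The 2 of 4 members called higher than in IgG stand against 38.6% of the 2054 miRNAs tested that edgeR called higher in the m6A samples (39.8% in either direction, 1.27% lower). RPM ranges did not overlap for 51.7% of all tested miRNAs, 45.8% higher and 5.84% lower. Over all tested miRNAs the median log2 fold change was 0.83, and TMM factors brought it to 0.06. The calls over all miRNAs were 792 higher and 26 lower, but 453 and 302 with TMM factors, 363 and 254 with DESeq2 and 448 and 258 with totals without miR-6080.

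miR-183-5p had 10625, 8372 and 8812 RPM in the m6A samples of FTO1C1, FTO2D4 and FTO3C3, the sixth highest mean of 2189 miRNAs. In the IgG samples it had 128.1, 185.6 and 391.5 RPM, from 95, 146 and 73 reads. All 3 m6A samples were thus far above all IgG samples, with within-clone ratios of 82.9, 45.1 and 22.5. The log2 fold change was 5.46 (SE 0.43, edgeR adjusted p 1.89e-05), and 97.9% of all tested miRNAs were lower. With TMM factors it was 4.71.

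miR-182-5p had 5003, 4387 and 4984 RPM in the m6A samples and 294.0, 343.2 and 681.2 RPM in the IgG samples. Its ratios of 17, 12.8 and 7.32 followed the same order of clones as those of miR-183-5p but were smaller in each. The log2 fold change was 3.55 (SE 0.33, edgeR adjusted p 4.88e-05), or 2.81 with TMM factors. Both guides passed the study's rule for enriched miRNAs, at least 100 RPM in the m6A samples and at least 2-fold over IgG, with mean ratios of 50.2 ± 30.5 for miR-183-5p and 12.4 ± 4.86 for miR-182-5p.

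miR-96-5p was low in both precipitates. It had 9, 40 and 233 reads in the m6A samples, or 15.8, 29.4 and 46.9 RPM, and 28, 11 and 1 reads in the IgG samples, or 37.8, 14.0 and 5.36 RPM. The groups overlapped, and the clones disagreed, with ratios of 0.418 in FTO1C1, 2.10 in FTO2D4 and 8.74 in FTO3C3. The last ratio rests on a single IgG read. The log2 fold change was 0.54 (SE 0.64, edgeR adjusted p 0.533). It turned negative with TMM factors (-0.24), with DESeq2 (-0.14), with totals that leave out miR-6080 (-0.19) and without FTO3C3 (-0.039), and without FTO1C1 it was 1.62 (adjusted p = 0.0485 by edgeR).

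miR-183-3p, the passenger strand, had 66.7, 132.8 and 93.9 RPM in the m6A samples and 580.0, 77.5 and 166.3 RPM in the IgG samples. The IgG sample of FTO1C1, with 430 reads, stood far above the others. The log2 fold change of miR-183-3p was -1.02 (SE 0.66, edgeR adjusted p 0.253), and only 1.07% of all tested miRNAs were lower. Without FTO1C1 its log2 fold change was -0.0014, and DESeq2 gave -1.79 (adjusted p = 0.00645 by DESeq2).

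The ratio of miR-182-5p to miR-183-5p was 0.471, 0.524 and 0.566 in the m6A samples against 2.29, 1.85 and 1.74 in the IgG samples, so that miR-183-5p was the more frequent of the pair in every m6A sample and the less frequent in every IgG sample. The mean log2 difference was -1.91 ± 0.34 (two-sided exact permutation test, p = 0.25, the smallest that 3 pairs allow), lower in 3 of 3 clones. For comparison, 47.0% of all pairs of miRNAs with at least 15 RPM did not overlap in this comparison, and the median absolute log2 change of a pair was 0.95.

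**Figure D2:**
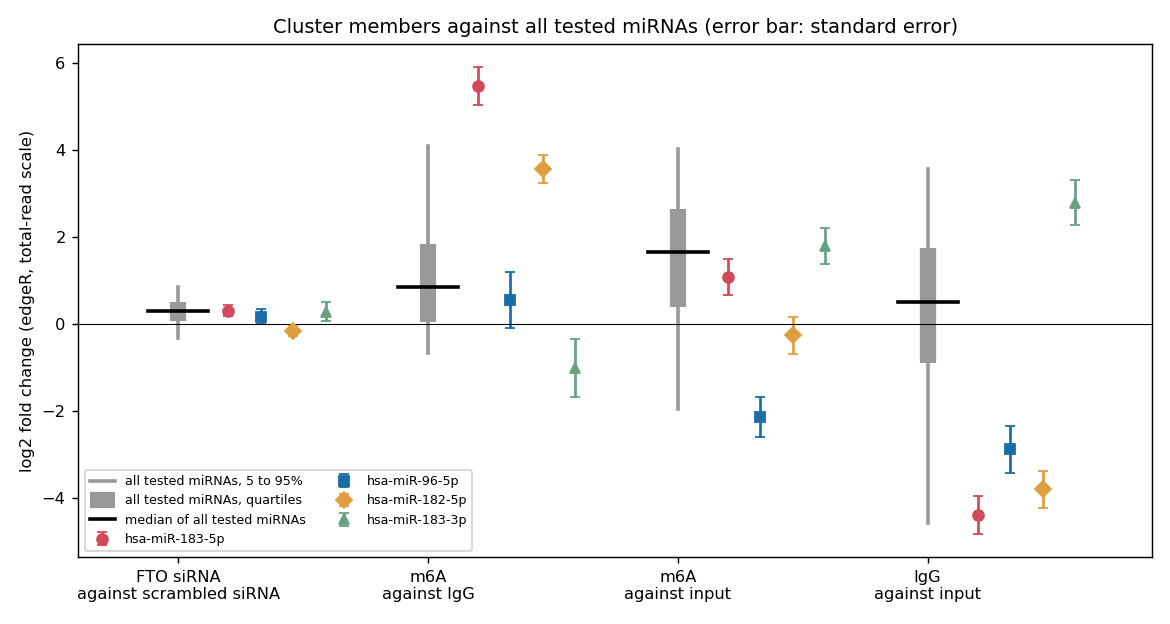
Log2 fold changes by edgeR on the total-read scale (y axis) of 4 members in the 4 comparisons (x axis), with standard errors, beside the median, quartiles and the 5 to 95% range of all tested miRNAs (grey). The members sit close together after knockdown (-0.16 to 0.30) and far apart for m6A against IgG, from -1.02 for miR-183-3p to 5.46 for miR-183-5p.

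Against the input, miR-96-5p fell in the m6A samples and miR-183-5p and miR-183-3p rose on the scale of total reads but not with TMM factors or DESeq2. This comparison uses the same m6A libraries as the one with IgG, so the values are set side by side only. edgeR called 77.3% of 2174 tested miRNAs, 66.8% higher and 10.5% lower in the m6A samples, RPM ranges did not overlap for 79.4% (68.2% higher, 11.2% lower), and the median log2 fold change was 1.65 on the scale of total reads and 0.10 with TMM factors, so that a direction near this median depends on the scale. The 1452 higher and 229 lower calls became 575 and 614 with TMM factors and 486 and 588 with DESeq2.

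miR-96-5p was lower in the m6A samples on every scale. It had 154.8, 149.3 and 102.6 RPM in the input, above all 3 m6A samples. The log2 fold change was -2.15 (SE 0.45, edgeR adjusted p 0.000118), a difference of -3.80 from the median miRNA, and only 4.51% of all tested miRNAs were lower. With TMM factors the log2 fold change was -3.69 and with DESeq2 -3.73.

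miR-182-5p had 3312, 7146 and 8017 RPM in the input, a range that includes the m6A samples, and its log2 fold change was -0.27 (SE 0.43, edgeR adjusted p 0.569). Its difference from the median miRNA was -1.92, and with TMM factors the log2 fold change was -1.82 (adjusted p = 0.00502 by edgeR), whereas totals without miR-6080 gave 0.19. miR-183-5p had 4215, 5174 and 3833 RPM in the input and was higher in all 3 m6A samples, with a log2 fold change of 1.08 (SE 0.415, edgeR adjusted p 0.0202). Its difference from the median miRNA was -0.57. The value turned to -0.47 with TMM factors (adjusted p = 0.252 by edgeR), and without FTO1C1 or FTO3C3 the adjusted p by edgeR was 0.153 and 0.0577. miR-183-3p had 14.2, 43.2 and 31.3 RPM in the input and a log2 fold change of 1.78 (SE 0.415, edgeR adjusted p 0.000353), close to the median miRNA, and with TMM factors it was 0.23 (adjusted p = 0.584 by edgeR).

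The count ratios of the guides are free of this scale. The ratio of miR-96-5p to miR-183-5p was between 0.0268 and 0.0379 in all input, scrambled and FTO siRNA libraries and between 0.00149 and 0.00532 in the m6A samples. Against the input the mean log2 difference of the ratio of miR-96-5p to miR-183-5p was -3.33 ± 1.17 (two-sided exact permutation test, p = 0.25, the smallest that 3 pairs allow), lower in 3 of 3 clones. The ratio of miR-182-5p to miR-183-5p was 0.786, 1.38 and 2.09 in the input, above the m6A samples in every clone, with a mean log2 difference of -1.34 ± 0.58 (exact permutation test, p = 0.25). Ratios that did not overlap were the rule here, at 71.1% of all pairs with at least 15 RPM, and the median absolute log2 change of a pair was 1.74, which the change of miR-96-5p to miR-183-5p exceeded and that of miR-182-5p to miR-183-5p did not.

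**Figure D3:**
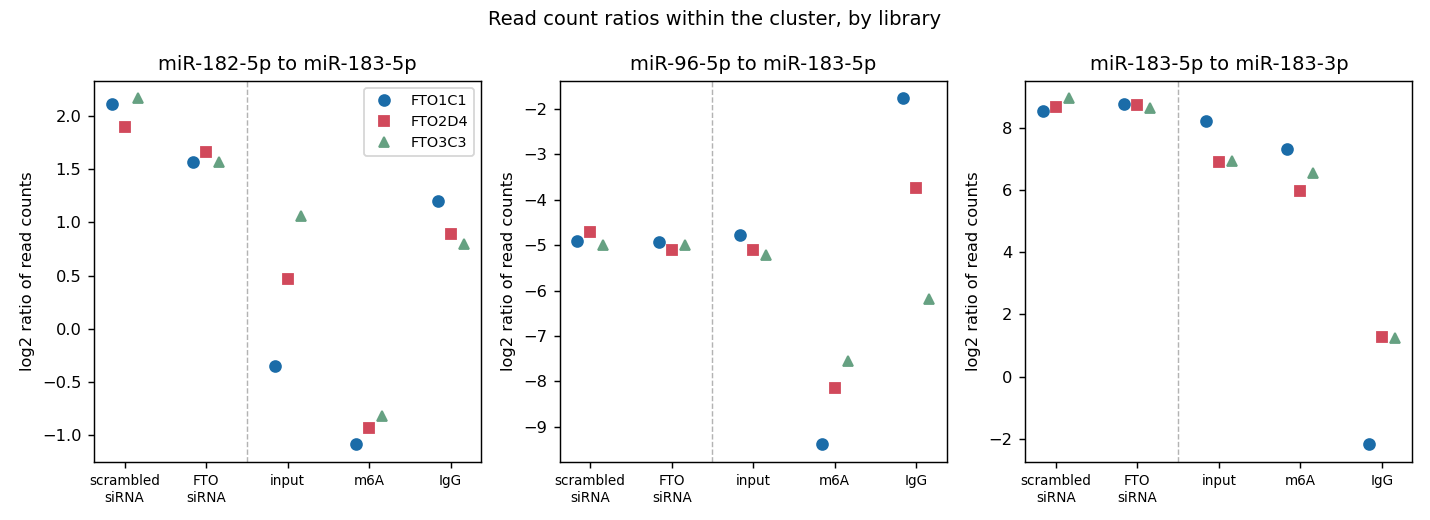
Log2 ratio of read counts of a pair of members (y axis) in each library by condition (x axis), with a symbol per cell line and the dashed line between the knockdown and RIP-seq libraries. The ratio of miR-96-5p to miR-183-5p lies between -5.22 and -4.72 in the scrambled, FTO siRNA and input libraries and between -9.39 and -7.56 in the m6A samples, and the guide to passenger ratio of miR-183 is lowest in the IgG samples.

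The IgG samples show what binds without the m6A antibody. All 4 members passed the test against the input, the 3 guides lower and the passenger strand higher, where edgeR called 58.6% of 1941 tested miRNAs, 21.8% lower and 36.8% higher. RPM ranges did not overlap for 65.3%, 24.4% lower and 40.9% higher. The 714 higher and 423 lower calls became 559 and 586 with TMM factors, 442 and 540 with DESeq2 and 1231 and 273 with totals without miR-6080. miR-183-5p had a log2 fold change of -4.39 (SE 0.44, edgeR adjusted p 1.16e-21), miR-182-5p of -3.81 (SE 0.42, edgeR adjusted p 1.96e-18) and miR-96-5p of -2.89 (SE 0.53, edgeR adjusted p 3.41e-07). Each guide was lower in the IgG sample of all 3 clones. miR-183-3p rose by a log2 fold change of 2.78 (SE 0.51, edgeR adjusted p 3.00e-07), and its IgG to input ratios were 40.8, 1.80 and 5.31 in FTO1C1, FTO2D4 and FTO3C3. On the log2 scale these ratios were 5.35, 0.845 and 2.41. The SE and p of edgeR do not measure this spread between the clones, since they draw on the variability shared across miRNAs. Without FTO1C1 the log2 fold change of miR-183-3p was 1.60 (adjusted p = 0.0663 by edgeR). The guide to passenger ratio of miR-183 was 0.221, 2.39 and 2.35 in the IgG samples, against 297, 120 and 122 in the input and 159, 63.0 and 93.8 in the m6A samples. Ratios of 67.7% of all pairs with at least 15 RPM did not overlap between the IgG samples and the input.

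Ordered by mean RPM over the 5 conditions, miR-183-5p and miR-182-5p had their lowest mean in the IgG samples, with TMM factors too, and miR-96-5p did on the scale of total reads only. miR-183-5p was highest after FTO knockdown, with the m6A samples inside an overlapping range, then came the scrambled, input and IgG samples (9674, 9270, 7881, 4407 and 235.1 RPM in this order). For miR-182-5p the order was scrambled, FTO siRNA, input, m6A and IgG (32886, 29317, 6159, 4791 and 439.5 RPM), and only the input and m6A samples overlapped among neighbours. miR-96-5p ran from FTO siRNA through scrambled, input and m6A to IgG (299.7, 269.6, 135.6, 30.7 and 19.0 RPM), where FTO siRNA overlapped with scrambled and m6A with IgG. With TMM factors both of these steps turned for miR-96-5p, to means of 301.6 with scrambled and 272.0 with FTO siRNA and of 21.1 in IgG and 18.3 in m6A. For miR-183-3p the order was nearly the inverse, with means of 274.6 RPM in IgG, 97.8 in m6A, 29.6 in input, 23.1 after FTO siRNA and 19.0 with scrambled siRNA. For miR-183-3p, IgG overlapped with m6A and input with FTO siRNA, the IgG mean rests on the 580.0 RPM of FTO1C1 beside 77.5 and 166.3 in the others, and with TMM factors the mean was 20.9 after FTO siRNA and 21.4 with scrambled siRNA. The knockdown and RIP-seq libraries were made in separate experiments, so levels across them are set side by side without a test. With TMM factors the means of miR-183-5p were 8762 RPM after FTO siRNA, 8787 with scrambled siRNA, 6942.5 in the input and 5736 in the m6A samples, so its order depends on the scale too. The summed share of the 4 members was between 0.770% and 1.25% in the input, against 3.86% to 4.36% with scrambled siRNA.

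Other miRNAs tied to the cluster were read from lists of its seed, its neighbourhood and its targets. miR-1271-5p, which shares the seed of miR-96-5p, had 83.3 RPM with scrambled and 86.2 with FTO siRNA on average (log2 fold change 0.09, adjusted p = 0.846 by edgeR). In the m6A samples miR-1271-5p was between 43.9 and 49.2 RPM and in the IgG samples between 31.8 and 91.2 RPM (log2 fold change -0.29, adjusted p = 0.597 by edgeR), so neither guide with this seed passed the test there. Against the input the calls of the 2 guides differed on the scale of total reads. miR-1271-5p was called higher in the m6A samples (log2 fold change 0.94, adjusted p = 0.0275 by edgeR, median of all miRNAs 1.65). It was also called higher in the IgG samples (1.28, adjusted p = 0.0205 by edgeR, median 0.49). miR-96-5p was called lower in both (-2.15 and -2.89). Set against the median miRNA, however, both guides were lower in the m6A samples (differences of -0.71 for miR-1271-5p and -3.80 for miR-96-5p). In the IgG samples these differences were 0.79 and -3.38.

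Of the arms of miR-335, miR-29a, miR-29b, miR-129 and miR-593, whose hairpins lie between 721.1 and 1688 kb from the cluster on chromosome 7, 9 were listed in the knockdown counts and none passed the test (by edgeR, 1 had an unadjusted p under 0.05), with a median log2 fold change of -0.05 against 0.29 for all miRNAs. miR-29b-3p and miR-129-5p also come from hairpins elsewhere. For m6A against IgG, 1 of 6 tested rose, miR-335-3p (log2 fold change 2.33, adjusted p = 0.0154 by edgeR), and 0 fell, against 38.6% and 1.27% of all, with a median of 1.09 against 0.83. The value of miR-335-3p rests on few IgG reads, 11, 6 and 1 in FTO1C1, FTO2D4 and FTO3C3. Against the input, 4 of 7 were higher and 2 lower in the m6A samples, where 66.8% and 10.5% of all tested miRNAs were. In the IgG samples 3 of 7 were higher and 2 lower, where 36.8% and 21.8% of all were. miR-29a-3p was among the lower ones in both (log2 fold changes -1.67 and -1.85).

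Of 8 other miRNAs known to act on FOXO1 mRNA, 1 fell after FTO knockdown, miR-27b-3p (log2 fold change -0.83, adjusted p = 0.00976 by edgeR), and none rose, and the median was 0.07 against 0.29 for all miRNAs. Their summed level was between 13826 and 15330.0 RPM with scrambled and between 8732 and 9749 RPM with FTO siRNA, most of it miR-27b-3p. For m6A against IgG, 3 of 6 tested rose and 0 fell, against 38.6% and 1.27% of all tested miRNAs. These were miR-223-3p (log2 fold change 5.20), miR-370-3p (2.15) and miR-27b-3p (1.36), beside 5.46 for miR-183-5p and 3.55 for miR-182-5p. Against the input 2 of 8 were higher and 4 lower in the m6A samples (66.8% and 10.5% of all tested miRNAs), and 2 of 8 were higher and 6 lower in the IgG samples (36.8% and 21.8%). miR-27b-3p had the lowest value of the list in both (log2 fold changes -6.25 and -7.68), whereas miR-183-5p was at 1.08 and -4.39.

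Over all 15 libraries, the profile of each guide on the log2(RPM + 1) scale was set beside those of miRNAs outside the cluster. Among 1229 miRNAs with at least 15 RPM on average in each experiment, those nearest to miR-183-5p by Pearson's r were miR-7703 (0.993), miR-4429 (0.986) and miR-4502 (0.985). Those nearest to miR-182-5p were miR-1468-3p (0.983), miR-30d-5p (0.981) and miR-28-3p (0.981), and those nearest to miR-96-5p were miR-101-5p (0.980), miR-106b-3p (0.978) and miR-30a-3p (0.964). Within the cluster r was 0.885 for miR-183-5p and miR-182-5p, 0.832 for miR-182-5p and miR-96-5p and 0.616 for miR-183-5p and miR-96-5p, while miR-183-3p was at -0.681, -0.804 and -0.766 with miR-183-5p, miR-182-5p and miR-96-5p. The nearest profiles are the highest values of 1229 compared, so they cannot be weighed against single pairs within the cluster. The libraries share conditions and totals, so these values describe the profiles only.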

How the data were processed

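Small RNA of 3 HEK293 clones was sequenced in 5 conditions. Per the Methods, adapters were trimmed by the authors using cutadapt, with an overlap of 4 bp and an error rate of 20%. Trimmed reads between 16 and 28 bp long were then assigned to the mature human miRNAs in release 20 of miRBase by exact matches. The authors deposited the read counts per miRNA without normalization. Every deposited column was used (0 left out). No listed miRNA had fewer than 22 reads over the knockdown libraries or 82 over the RIP-seq libraries.

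From these, RPM of total miRNA reads, ratios within a clone and count ratios between members were computed. Differences were tested over all miRNAs with edgeR's quasi-likelihood test (filterByExpr, minimum count 10, library sizes equal to total miRNA reads, cell line as a block, Benjamini-Hochberg at 0.05). The test was run on simulated counts with planted changes in both directions, all larger than those of the members after knockdown. That check therefore does not bear on changes as small as those. The standard error is the log2 fold change divided by the root of F. The clone pairs the libraries, and deviations of paired libraries from their group means correlated between 0.121 and 0.189 in the knockdown and between -0.0711 and 0.0661 in the RIP-seq comparisons. Libraries of a group differed by more than sampling noise (chi-square per degree of freedom at least 7.79). The miRNAs named are the members, those with a member's seed, the listed 7q32 and FOXO1 miRNAs and the 3 nearest profiles. The members and lists were chosen with earlier results of these data known. Alternatives were TMM factors, DESeq2, no filter, no block, totals without miR-6080, a geometric mean ratio, an IgG count of 0 set to 1 instead of 3 reads, 0.5 added to counts in ratios, and each clone left out. Fits used edgeR 4.0.16 and limma 3.58.1, with DESeq2 1.42.0 as the other tool, in R 4.3.3. Tables and plots used scipy 1.17.1, numpy 2.4.6, matplotlib 3.10.9 and pandas 2.3.3 under Python 3.11.15.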

Additional observations from a re-analysis of the deposited data

How the results depend on the processing

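The direction and the call of miR-183-5p and miR-182-5p for m6A against IgG, and those of miR-96-5p for m6A against input, were the same under every alternative, and none of the 6 members passed the test after knockdown under any of them. With TMM factors, the log2 fold changes after knockdown of miR-183-3p and miR-96-5p were -0.023 and -0.13, with DESeq2 -0.0082 and -0.14. For m6A against IgG, miR-96-5p was at -0.24 with TMM factors, -0.14 with DESeq2 and -0.19 with totals without miR-6080, and miR-183-3p at -1.79 with DESeq2. For m6A against input, TMM factors and DESeq2 gave -1.82 and -1.84 for miR-182-5p, 0.23 and 0.21 for miR-183-3p and -0.47 and -0.49 for miR-183-5p, and totals without miR-6080 gave 0.19 for miR-182-5p. The median log2 fold change of all miRNAs for m6A against input was 1.65, 0.101 with TMM factors and 2.12 without miR-6080. With each clone left out, miR-96-5p for m6A against IgG ran from -0.039 to 1.62, miR-183-5p for m6A against input from 0.95 to 1.27, and miR-183-3p for IgG against input from 1.60 to 3.89. The log2 change after knockdown of the ratio of miR-183-5p to miR-183-3p, -0.0042, was 0.0029 with 0.5 added to each count and ran from -0.13 to 0.14 with a clone left out. Calls over all miRNAs after knockdown numbered 130, 55 with TMM factors (21 higher and 34 lower, against 118 and 12) and 41 without the replicate block; without FTO1C1 there were 0 (327 at an unadjusted p under 0.05) and without FTO3C3 201. For m6A against IgG they numbered 818 and, with a clone left out, from 470.0 (without FTO2D4) to 730.0, and for m6A against input 1681 and, with DESeq2, 1074. Leaving out the block changed no call of a member. Of 20 mean levels, 13 moved by more than 1 SD with TMM factors. The IgG counts of miR-96-5p, 28, 11 and 1 reads, limit its comparison with m6A.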
